A study of Mus musculus with 12 samples.

Results

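The interferon regulatory factor (IRF) genes are a family of transcription factor genes, of which 8 mouse members, Irf1, Irf2, Irf3, Irf4, Irf5, Irf7, Irf8 and Irf9, were taken by Ensembl ID from the 55401 genes of the count table. RNA came from 12 TC2Ras tumors, 3 in each of 4 groups, collected 21 days after cells were injected under the skin of both flanks. TC2Ras is a mouse prostate cancer cell line driven by Ras. ASC are adipose-derived stromal cells, here primary cells that carry a ubiquitously expressed GFP transgene, taken from male mice. Inorganic arsenic (iAs) was given in the drinking water after implantation. Control tumors grew from 125000 TC2Ras cells in mice on water with 0 ppb iAs. ASC tumors grew from the same number of TC2Ras cells mixed with 1% ASC, at 0 ppb iAs. As300 tumors grew from TC2Ras cells alone in mice on 300 ppb iAs, and ASC_As300 tumors from TC2Ras cells with 1% ASC in mice on 300 ppb iAs. Before implantation, mice of all 4 groups had purified chow low in arsenic and purified water. The strain, sex and age of the host mice are not given in the sources used here. The tumors of both flanks of a mouse were pooled, so that 1 library stands for 1 mouse. The labels name the material as adipose stromal cells, while the protocols describe excised tumors. Markers of stromal cells, leukocytes and macrophages were detected in every library.

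As background, IRFs share a DNA-binding domain that recognises a GAAA-type core sequence in the promoters of interferons and of interferon-stimulated genes. Interferon gamma acts through gamma-activated (GAS) sites in promoters and switches on Irf1, and IRF1 in turn drives antigen-processing genes, guanylate-binding proteins and the chemokines Cxcl9 and Cxcl10. Type I interferons act through ISGF3, a complex that holds STAT2 and IRF9 and binds interferon-stimulated response elements (ISREs). IRF3, IRF5 and IRF7 are activated after pathogen or nucleic acid sensing, and IRF4 and IRF8 shape lymphoid and myeloid lineages.

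The promoters of Irf1, Irf8 and Irf2 are shown because they were the promoters of members in which a GAS site or an ISRE core was matched. Each window runs from 250 bases before to 50 bases after the start site, read 5′ to 3′ from the RefSeq promoter table (GRCm38.p6), with the matches in capitals. The windows are chr11:53769764-53770063 for Irf1, chr8:120736108-120736407 for Irf8 and chr8:46739495-46739794 for Irf2, all on the plus strand.
Irf1: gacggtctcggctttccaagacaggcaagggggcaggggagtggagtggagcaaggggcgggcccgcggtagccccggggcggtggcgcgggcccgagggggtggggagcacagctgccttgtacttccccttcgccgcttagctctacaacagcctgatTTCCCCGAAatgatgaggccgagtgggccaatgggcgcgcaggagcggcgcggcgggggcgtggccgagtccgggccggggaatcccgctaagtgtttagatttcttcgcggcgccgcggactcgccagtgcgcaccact
Irf8: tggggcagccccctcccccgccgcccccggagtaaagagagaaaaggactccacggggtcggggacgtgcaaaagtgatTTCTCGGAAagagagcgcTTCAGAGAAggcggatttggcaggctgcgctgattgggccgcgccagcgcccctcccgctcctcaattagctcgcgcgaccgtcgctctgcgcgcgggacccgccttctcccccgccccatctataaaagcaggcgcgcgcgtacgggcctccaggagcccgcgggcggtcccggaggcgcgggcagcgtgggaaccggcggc
Irf2: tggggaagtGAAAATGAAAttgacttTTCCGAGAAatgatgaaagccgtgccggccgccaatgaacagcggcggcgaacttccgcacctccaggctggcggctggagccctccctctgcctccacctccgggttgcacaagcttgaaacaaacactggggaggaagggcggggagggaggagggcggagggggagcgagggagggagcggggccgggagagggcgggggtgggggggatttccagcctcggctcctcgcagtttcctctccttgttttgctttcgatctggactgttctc
The capitals in Irf1 mark 1 GAS site, TTCCCCGAA, 90 to 82 bases before the start site. Those in Irf8 mark a pair of GAS sites, TTCTCGGAA and TTCAGAGAA. In Irf2 the capitals mark an ISRE core, GAAAATGAAA, followed by a GAS site, TTCCGAGAA. The motifs searched on both strands were TTCNNNGAA for GAS and, for the ISRE core, GAAA, any 2 bases and GAAA, and the matches did not overlap each other. A GAS site was present in 3 of the 8 members and in 9.55% of the 27025 genes with a window. The ISRE core was present in 1 of these 8 members and in 3.99% of all genes. The other windows of members held neither motif. A match describes letters in these windows and is no evidence of binding.

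Total counts per tumor ran from 39157647 to 55168642, and levels are given as CPM, counts scaled to the TMM-adjusted size of each library. All 8 members passed the filter on low counts that left 20818 genes for testing. A call required an adjusted p under 0.05 (Benjamini-Hochberg, over all tested genes) in edgeR's quasi-likelihood test together with a difference of 1.5-fold or more. The members' counts ran from 906 to 9540 per tumor for 7 genes and from 53 to 211 for Irf4. Control replicate 1 stood apart from the other Control tumors in lymphoid and epithelial genes. Its 6 B cell markers summed to 190.8 CPM, against 4.64 and 5.84 in the other two Control tumors, and its 8 T cell markers to 80.7 CPM, against 17.02 and 16.01. Its 9 epithelial markers summed to 363 CPM, against 67.1 and 95.4. For the members, values without this tumor are given beside the comparisons with Control. Nothing in the labels says more about how the mice of a group were handled, and p-values cover the spread between these mice.

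In ASC against Control, 3 of the 8 members were called higher, Irf1, Irf7 and Irf9, and none lower, while 0.706% of all tested genes were called higher. In ASC_As300 against Control, 2 members were called higher, Irf1 and Irf5, with a background of 0.783%. In ASC_As300 against As300, the comparison for ASC among exposed mice, 2 members were called higher, Irf1 and Irf9, with a background of 0.793%. Over both iAs levels, where 6 tumors with ASC were compared with 6 without, 5 members were called higher, Irf1, Irf5, Irf7, Irf8 and Irf9, with a background of 1.36%. The first 2 of these comparisons share the Control tumors, and the last uses all 12 tumors of the others. Every ASC tumor was above every Control tumor for 5 members (background 9.94%), every ASC_As300 tumor above every Control tumor for 5 members (13.5%), and every ASC_As300 tumor above every As300 tumor for 6 members (11.3%). Without Control replicate 1, Irf8 replaced Irf7 among the 3 calls in ASC, and Irf1, Irf5 and Irf8 were the 3 calls in ASC_As300. With DESeq2, 4 members were called higher in ASC against Control (Irf1, Irf5, Irf7 and Irf9, with a background of 2.64% of the genes given an adjusted p). It called 4 in ASC_As300 against Control (Irf1, Irf5, Irf7 and Irf8, background 2.05%) and 3 in ASC_As300 against As300 (Irf1, Irf8 and Irf9, background 1.4%). In a bulk tumor, fewer cells of a type and less RNA per cell cannot be told apart.

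**Figure D1:**
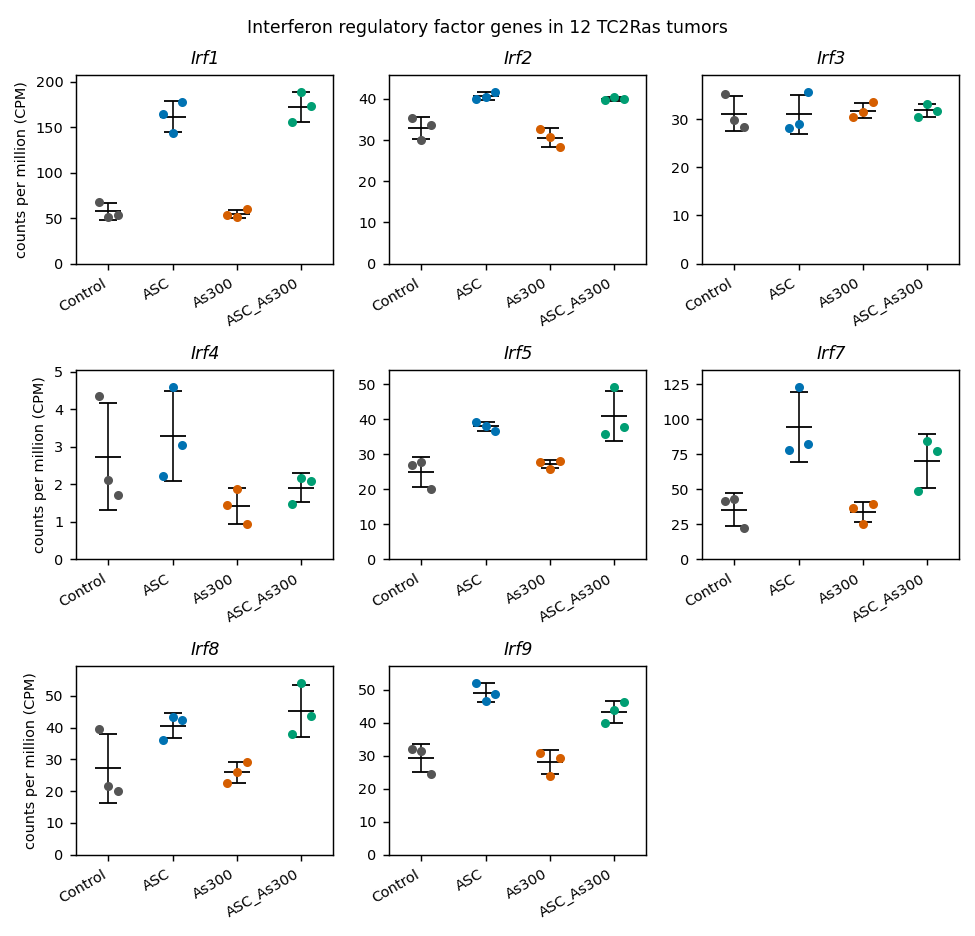
Level of each family gene (CPM, linear axis from 0, scaled per panel) in the 4 groups, 1 point per tumor, with the mean and SD of 3 tumors as bars. Irf1 was at 143 to 188 CPM in the 6 tumors with ASC and at 50.7 to 68.1 CPM in the 6 without, while Irf3 lay between 28.2 and 35.7 CPM in all 12.

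**Figure D2:**
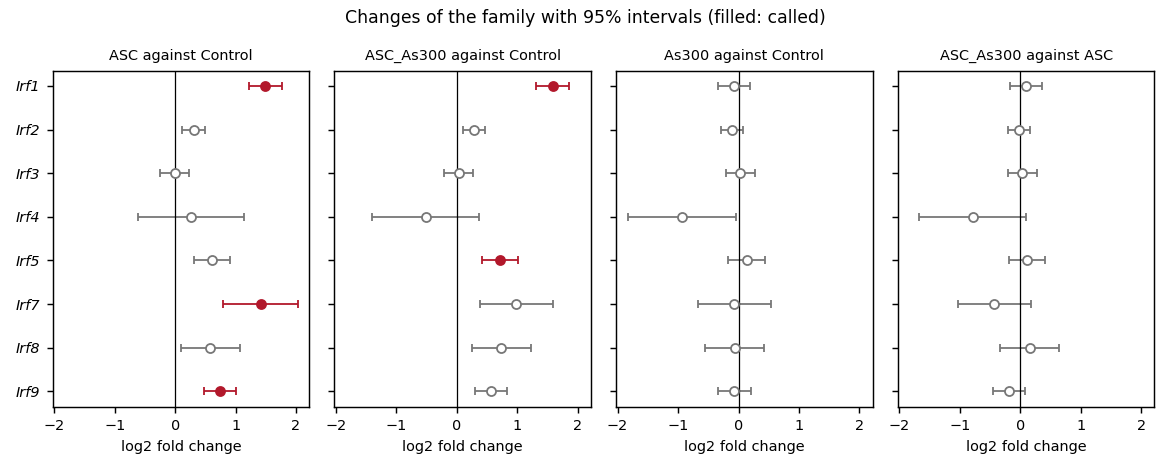
Log2 fold changes of the 8 genes in 4 comparisons, with 95% intervals from the edgeR fit, filled where called. Calls lie in the 2 panels of tumors with ASC against Control, and no gene is called in As300 against Control or in ASC_As300 against ASC.

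Irf1, the activator induced by interferon gamma, had the largest change of the family in the comparisons of tumors with ASC against tumors without. Irf1 (ENSMUSG00000018899) lies at chr11:53770014-53778374 (GRCm38, plus strand). It measured 68.1, 50.7 and 53.5 CPM in the Control tumors and 163.9, 143.3 and 177.5 CPM in the ASC tumors. In As300 the values were 53.2, 51.5 and 59.6 CPM, and in ASC_As300 they were 155.2, 188.4 and 173.2 CPM. The 6 tumors with ASC thus lay above the 6 without, with no overlap, at either iAs level. Group means were 57.5 ± 9.34 in Control, 161.6 ± 17.2 in ASC, 54.7 ± 4.28 in As300 and 172.3 ± 16.6 CPM in ASC_As300 (SD, n = 3 each). Irf1 rose 2.81-fold in ASC against Control (log2 1.49, SE 0.12, edgeR adjusted p = 0.000167) and 2.998-fold in ASC_As300 against Control (log2 1.58, edgeR adjusted p = 9.34e-05). It rose 3.15-fold in ASC_As300 against As300 (log2 1.65, edgeR adjusted p = 4.66e-05). Its call held in every alternative run for these 3 comparisons, and without Control replicate 1 its log2 change was 1.64 in ASC and 1.73 in ASC_As300.

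Irf2, which binds the same elements as Irf1 and is known as its antagonist, differed far less between groups. Irf2 (ENSMUSG00000031627, chr8:46739732-46847458, plus strand) was at 35.3, 29.9 and 33.6 CPM in Control and at 39.9, 40.4 and 41.7 CPM in ASC. It was at 32.7, 30.8 and 28.3 CPM in As300 and at 39.6, 40.6 and 40.0 CPM in ASC_As300. The tumors with ASC were again above all tumors without, in a narrow band. The log2 difference was 0.31 in ASC against Control (95% interval 0.12 to 0.49, adjusted p = 0.139) and 0.28 in ASC_As300 (0.10 to 0.47, adjusted p = 0.159). These values were, without Control replicate 1, 0.37 (adjusted p = 0.134) and 0.34 (adjusted p = 0.172). Over both iAs levels it was 0.35 with an adjusted p of 0.00749, below the 1.5-fold minimum of a call.

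The ratio of Irf1 to Irf2, each per kilobase of transcript, was 2.26, 1.98 and 1.86 in Control and 4.80, 4.14 and 4.97 in ASC. In As300 it was 1.90, 1.95 and 2.46, and in ASC_As300 4.58, 5.43 and 5.06. Activator message per antagonist message was thus higher in each of the 6 tumors with ASC than in each of the 6 without. The mean log2 ratio differed by 1.23 between tumors with and without ASC (exact permutation test within iAs levels, two-sided p = 0.005, the smallest that its 400 assignments allow). Irf1 alone already separated these 6 tumors from the other 6, and Irf2 differed far less. The ratio was also chosen with earlier results of these data known, so this p is no separate evidence on the balance of the 2 genes.

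Irf9, the DNA-binding subunit of ISGF3, was higher in tumors with ASC. Irf9 (ENSMUSG00000002325, chr14:55603571-55610030, plus strand) measured 32.0, 31.5 and 24.5 CPM in Control and 52.1, 46.4 and 48.8 CPM in ASC. It measured 30.9, 23.9 and 29.2 CPM in As300 and 39.7, 43.9 and 46.3 CPM in ASC_As300. Tumors with and without ASC did not overlap, and every ASC_As300 tumor was below every ASC tumor, the closest pair being 46.3 and 46.4 CPM. Irf9 rose 1.67-fold in ASC against Control (log2 0.74, SE 0.12, edgeR adjusted p = 0.012) and 1.55-fold in ASC_As300 against As300 (log2 0.63, edgeR adjusted p = 0.0321). In ASC_As300 against Control its log2 difference was 0.56 with an adjusted p of 0.0548, just under the 1.5-fold minimum, and in ASC_As300 against ASC it was -0.18 (95% interval -0.45 to 0.08). Without Control replicate 1 the Irf9 value was 0.82 in ASC (adjusted p = 0.0157) and 0.63 in ASC_As300 against Control (adjusted p = 0.064). Of 21 alternatives the fit of only the tumors compared ended the call in ASC (adjusted p = 0.0522). The ASC_As300 against As300 call was lost in 11 of 21 alternatives, among them leaving out any 1 As300 or ASC_As300 tumor (adjusted p from 0.0502 to 0.173), Control replicate 2 (0.0538), ASC replicate 1 (0.0555) or ASC replicate 3 (0.0504). Irf9 shares 123 exonic bases with Rnf31, a neighbor on the same strand that had 854 to 1410 counts per tumor. How reads in those bases were assigned was not tested.

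Among the members activated by nucleic acid and pathogen sensing, Irf7, the amplifier of type I interferon responses, had the widest spread between tumors. Irf7 (ENSMUSG00000025498, chr7:141262706-141266481, minus strand) was at 41.5, 42.7 and 21.9 CPM in Control and at 77.7, 122.7 and 82.2 CPM in ASC. It was at 36.3, 25.4 and 39.3 CPM in As300 and at 48.5, 84.4 and 77.3 CPM in ASC_As300. The groups with and without ASC did not overlap, although the lowest ASC_As300 tumor, at 48.5 CPM, was close to the highest Control tumor, at 42.7 CPM. Irf7 was called in ASC against Control, where it was 2.66-fold higher (log2 1.41, SE 0.28, edgeR adjusted p = 0.0407). This call was close to the threshold: it was lost in 12 of 21 alternatives, with adjusted p between 0.000782 with DESeq2 and 0.137 without ASC replicate 2. Leaving out Control replicate 1, 2 or 3, ASC replicate 2 or 3, As300 replicate 1 or 3, or ASC_As300 replicate 2 or 3 each ended it, at log2 values between 1.18 and 1.59, with 1.55 (adjusted p = 0.0505) without Control replicate 1. In ASC_As300 against Control the log2 difference was 0.98 (95% interval 0.38 to 1.59, adjusted p = 0.138) and, with Control replicate 1 left out, 1.12 (adjusted p = 0.164). DESeq2 called Irf7 in that comparison (log2 0.98, adjusted p = 0.0436). Over both iAs levels Irf7 rose 2.35-fold (log2 1.23, edgeR adjusted p = 0.00453).

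Irf5, which acts downstream of Toll-like receptors in macrophages, was the second member called in ASC_As300 against Control. Irf5 (ENSMUSG00000029771, chr6:29526625-29541871, plus strand) measured 27.0, 27.7 and 20.1 CPM in Control and 39.3, 38.2 and 36.6 CPM in ASC. It measured 27.7, 25.9 and 28.2 CPM in As300 and 35.9, 49.2 and 37.8 CPM in ASC_As300. All tumors with ASC were above all tumors without. Irf5 rose 1.65-fold in ASC_As300 against Control (log2 0.72, SE 0.14, edgeR adjusted p = 0.029), a call lost in 6 of 21 alternatives, including without Control replicate 2 or 3 and without ASC_As300 replicate 2 or 3 (adjusted p from 0.0501 to 0.11). In ASC against Control it was 1.53-fold higher with an adjusted p of 0.0709, and it was called by DESeq2 (adjusted p = 0.00248) and without ASC_As300 replicate 2 (0.0387). The log2 values of Irf5 without Control replicate 1 were 0.68 in ASC (adjusted p = 0.0798) and 0.78 in ASC_As300 against Control (adjusted p = 0.0433). Over both iAs levels Irf5 rose 1.51-fold (log2 0.60, edgeR adjusted p = 0.00505), and without Control replicate 3, As300 replicate 2 or ASC_As300 replicate 2 it came below the 1.5-fold minimum, at 0.53, 0.58 and 0.52. Its exons overlap those of Tnpo3 on the opposite strand over 411 bases, and Tnpo3 had 4116 to 6730 counts per tumor. The library kit marks strand, but whether counting used it is not given in the sources used here. How far Tnpo3 reads enter the Irf5 count was not tested. Exons on the opposite strand also overlap those of Irf1 over 135 bases (Gm17334), of Irf3 over 88 (Bcl2l12) and of Irf7 over 45 (Phrf1).

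Irf3, the constitutively expressed factor activated by phosphorylation downstream of nucleic acid sensors, did not differ detectably at the message level. Irf3 (ENSMUSG00000003184, chr7:44997648-45002848, plus strand) was at 35.2, 29.8 and 28.4 CPM in Control and at 28.2, 29.1 and 35.7 CPM in ASC. It was at 30.4, 31.4 and 33.5 CPM in As300 and at 30.5, 33.2 and 31.7 CPM in ASC_As300. All 4 groups overlapped. The log2 difference of ASC against Control was -0.01, with a 95% interval of -0.25 to 0.24 that leaves no room for a change of 1.5-fold. It was, without Control replicate 1, 0.10 in ASC (adjusted p = 0.757) and 0.13 in ASC_As300 against Control (adjusted p = 0.666).

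Irf8, a factor of the macrophage and dendritic cell lineages, was called by edgeR over both iAs levels when all 12 tumors were used, and by DESeq2 in further comparisons. Irf8 (ENSMUSG00000041515, chr8:120736358-120756694, plus strand) measured 39.7, 21.8 and 20.03 CPM in Control and 36.1, 43.5 and 42.4 CPM in ASC. It measured 22.7, 26.1 and 29.3 CPM in As300 and 38.0, 54.2 and 43.6 CPM in ASC_As300. Control replicate 1 overlapped the tumors with ASC, and the other 5 tumors without ASC lay below all 6 with it. The log2 difference was 0.58 in ASC against Control (95% interval 0.09 to 1.07, adjusted p = 0.246). Without Control replicate 1 it was 0.97 (edgeR adjusted p = 0.0141), and in ASC_As300 against Control it moved from 0.74 (adjusted p = 0.165) to 1.12 (adjusted p = 0.00541). In ASC_As300 against As300 it was 0.80 with an adjusted p of 0.185, which became 0.0187 without Control replicate 1. DESeq2 called Irf8 in ASC_As300 against Control (log2 0.73, adjusted p = 0.0232) and in ASC_As300 against As300 (log2 0.77, adjusted p = 0.0254), but not in ASC against Control (adjusted p = 0.0812). Over both iAs levels Irf8 rose 1.61-fold (log2 0.69, edgeR adjusted p = 0.0477), a call lost in 13 of 20 alternatives. These included leaving out any 1 tumor except Control replicate 1 or ASC_As300 replicate 1, with adjusted p up to 0.132.

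Irf4, the factor of activated lymphocytes and plasma cells, was low and uneven. Irf4 (ENSMUSG00000021356, chr13:30749226-30766976, plus strand) was at 4.36, 2.11 and 1.71 CPM in Control and at 2.23, 4.58 and 3.05 CPM in ASC. It was at 1.45, 1.88 and 0.936 CPM in As300 and at 1.47, 2.17 and 2.08 CPM in ASC_As300. The highest values were in Control replicate 1 and in ASC replicate 2, the tumors that also had the highest sums of B cell markers, at 190.8 and 13.8 CPM. The next highest value, 3.05 CPM in ASC replicate 3, came with a B cell sum of 3.54 CPM. The part of B cells in the Irf4 level was not tested. In ASC against Control the log2 difference of Irf4 was 0.27 (edgeR adjusted p = 0.813) and, without Control replicate 1, 0.79 (edgeR adjusted p = 0.374). In ASC_As300 against Control it was -0.52 (edgeR adjusted p = 0.583) and, without that tumor, -0.0009. In As300 against Control its log2 difference was -0.94 (95% interval -1.83 to -0.05, adjusted p = 0.184), and without Control replicate 1 it was -0.41.

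Set against each other per kilobase of principal transcript, Irf1 was first and Irf7 second in all 4 groups, and Irf4 was last. In ASC the means were 75.6 CPM per kilobase for Irf1, 49.2 for Irf7, 19.97 for Irf9, 17.0 for Irf5, 16.3 for Irf2, 15.3 for Irf3, 14.3 for Irf8 and 0.690 for Irf4. In Control they were 26.9 for Irf1, 18.5 for Irf7, 15.3 for Irf3, 13.2 for Irf2, 11.9 for Irf9, 11.1 for Irf5, 9.54 for Irf8 and 0.573 for Irf4. In Control the tumors of each pair of neighbours from Irf7 down to Irf8 overlapped, and Irf1 stood apart. Among the ASC tumors Irf1, Irf7 and Irf9 each stood apart from the next, and the neighbours from Irf5 to Irf8 overlapped. In As300 the order began with Irf1, Irf7 and Irf3, and in ASC_As300 with Irf1, Irf7 and Irf5. The As300 tumors overlapped between Irf7 and Irf3, and the ASC_As300 tumors between Irf5 and the next, Irf9. With the length of all exons joined in place of the principal transcript, Irf5 and not Irf7 was second in As300. In ASC Irf5 then took rank 3 and Irf9 rank 4, and the Irf9 values overlapped those of Irf3. In Control Irf5 took rank 4 in place of rank 6 and stood apart from Irf9.

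**Figure D3:**
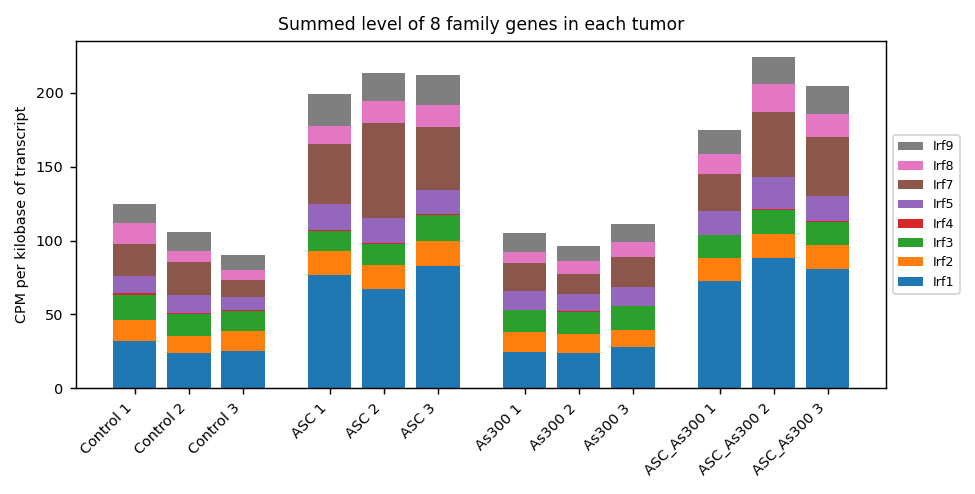
Stacked levels of the 8 genes in each tumor, in CPM per kilobase of principal transcript. The sums lie at 174.7 to 224.1 in the 6 tumors with ASC and at 90.2 to 124.9 in the 6 without, and Irf1 and Irf7 are the thickest layers in the tumors with ASC.

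The summed level of the 8 genes was 107 ± 17.4 CPM per kilobase in Control, 208.2 ± 8.07 in ASC, 104.1 ± 7.61 in As300 and 201 ± 24.9 in ASC_As300 (SD, n = 3 each). Irf1 made up 25.2% of it in Control and 24.6% in As300, against 36.4% in ASC and 40.2% in ASC_As300. The share of Irf3 went the other way, from 14.4% in Control and 15.1% in As300 to 7.32% in ASC and 7.84% in ASC_As300, while its CPM did not differ detectably.

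For iAs, none of the 8 members was called in As300 against Control, where 1.06% of all genes were called in either direction. With edgeR 1 member, Irf4, had an unadjusted p under 0.05, as had 24.1% of all tested genes. DESeq2 called 0 members, against a background of 5.07% of the genes given an adjusted p. Apart from Irf4, the log2 differences lay between -0.11 and 0.13, and the groups overlapped for every member. With Control replicate 1 left out edgeR again called none, and the log2 differences apart from Irf4 lay between -0.03 and 0.33. For Irf1 the difference was -0.07 with a 95% interval of -0.34 to 0.20, and for Irf9 it was -0.07 with an interval of -0.33 to 0.20. Both intervals exclude a 1.5-fold change, while those of Irf4 and Irf7 do not.

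In ASC_As300 against ASC, the comparison for iAs in tumors with ASC, edgeR called 0 members (background 0%), with 0 at an unadjusted p under 0.05. Over all 20818 tested genes, 307 higher and 362 lower had such a p. DESeq2 called 0 members, while over all genes it called 4 higher and 7 lower of the 31174 given an adjusted p. Irf7 had a log2 difference of -0.43 (95% interval -1.03 to 0.17) and Irf4 one of -0.78 (-1.67 to 0.10), and neither passed the test. For Irf4 and Irf9 every ASC_As300 tumor was below every ASC tumor, against a background of 3.91% of genes. Over both ASC levels the iAs effect gave 0 member calls with edgeR (background 0%) and 0 with DESeq2. Over all genes DESeq2 called 30 higher and 84 lower of the 14779 given an adjusted p. Irf4 alone of the members had an edgeR unadjusted p under 0.05 (log2 -0.86, edgeR adjusted p = 0.207), as had 1564 higher and 1761 lower of all 20818 tested genes. The interaction, which tests whether the effect of ASC differs between iAs levels, gave 0 member calls with edgeR, where the background was 0%. DESeq2 also called 0 members, while over all genes it called 29 positive and 145 negative of the 16735 given an adjusted p. In the interaction 0 members had an unadjusted p under 0.05 with either method. Over all genes, 1473 positive and 1363 negative of 20818 had one with edgeR, and 1392 and 1815 of 33784 with DESeq2. The interaction estimate was 0.16 for Irf1 on the log2 scale (95% interval -0.21 to 0.54) and -0.35 for Irf7 (-1.21 to 0.50). With 3 tumors per group, the Irf7 interval does not exclude a negative interaction of 1.5-fold or more, while a positive one of that size lies outside it.

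Upstream of the family, the interferons themselves were barely represented. Ifna1, Ifna2, Ifnl2 and Ifnl3 had 0 counts in all 12 tumors, and Ifnb1 had at most 13 counts. Ifng, the type II interferon made by T cells and natural killer cells, was at 0.103, 0.230 and 0.0868 CPM in Control and at 2.31, 1.72 and 2.24 CPM in ASC. It was at 0.3002, 0 and 0.406 CPM in As300 and at 1.86, 2.21 and 3.52 CPM in ASC_As300. Every tumor with ASC thus had more Ifng message than every tumor without. Ifng was called in ASC_As300 against Control (log2 4.14, SE 0.83, edgeR adjusted p = 0.0347) but not in ASC against Control (log2 3.86, adjusted p = 0.0563), and the former call was fragile: leaving out any 1 Control or ASC_As300 tumor or ASC replicate 1 ended it (adjusted p up to 0.155). Of the 7 interferon and receptor genes that passed the filter among 16, it was the only one called, and the receptor genes Ifnar1, Ifnar2, Ifngr1, Ifngr2 and Il10rb had log2 differences of 0.04 to 0.27 in ASC.

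Among 21 sensors, adaptors and kinases upstream of IRF3, IRF5 and IRF7, 2 were called higher in ASC against Control and 0 lower, with a list median of 0.17 on the log2 scale, while 0.706% of all tested genes were called higher. DESeq2 called 5 of them in ASC (background 2.64%), Tlr3, Zbp1, Ddx58, Ifih1 and Dhx58, and 2 in ASC_As300 against Control (2.05%). The 2 called by edgeR were Zbp1, a sensor of Z-form nucleic acid (log2 2.13, edgeR adjusted p = 0.00048), and Dhx58, a RIG-I-like receptor (log2 1.35, edgeR adjusted p = 0.0104). The adaptor Myd88 was 0.45 higher with an adjusted p of 0.0122, below the 1.5-fold minimum. The same pair was called in ASC_As300 against Control, where Dhx58 was lost without any 1 Control tumor, As300 replicate 1 or ASC_As300 replicate 2 or 3 (adjusted p up to 0.176). In ASC it was lost without Control replicate 3 (0.0508), and 4 sensors were called without ASC replicate 3. With Control replicate 1 left out edgeR called 2 sensors in ASC and 1, Zbp1, in ASC_As300. Of 5 JAK and STAT genes, Stat2, the partner of IRF9 in ISGF3, was called higher in ASC and in ASC_As300 against Control, and the list median was 0.02 in ASC and, without Control replicate 1, 0.04. Stat2 was at 30.8, 33.2 and 23.1 CPM in Control and at 67.3, 68.5 and 52.0 CPM in ASC (log2 1.11, edgeR adjusted p = 0.00644). In ASC_As300 Stat2 was 0.87 higher (edgeR adjusted p = 0.0289), a call lost without Control replicate 1 or 3 or ASC_As300 replicate 2 or 3 (adjusted p up to 0.133). Irf9 and Stat2 were thus both called in ASC against Control.

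Genes known as IRF1 targets moved most. Of 20, 15 were called higher in ASC against Control and 0 lower, with a median log2 change of 1.76 against -0.0044 for all tested genes. Gbp2, a guanylate-binding protein, went from 34.6, 25.4 and 20.8 CPM in Control to 331.3, 216.9 and 313 CPM in ASC (log2 3.41, edgeR adjusted p = 4.22e-05). Gbp3 (log2 2.54) and the immunoproteasome subunit Psmb10 (log2 1.75) had the next smallest p-values. The 5 not called were Il15, Casp1, Nos2, Il12b and Ciita, the class II transactivator, which had a log2 difference of -0.32. In ASC_As300 against Control 15 of the 20 were called higher, with a median of 1.83, and Gbp2 was at 307.9, 394.6 and 360 CPM. Without Control replicate 1 the counts were 14 and 15, and with DESeq2 they were 17 and 16. The shares of all tested genes called higher by edgeR were 0.706% in ASC and 0.783% in ASC_As300 against Control. For DESeq2 they were 2.64% and 2.05% of the genes given an adjusted p. Without Control replicate 1, edgeR called 212 and 199 of 21664 genes higher.

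Of 20 targets of ISGF3 and IRF7, 10 were called higher in ASC against Control (background 0.706%) and 0 lower, with a median of 1.27. Xaf1 (log2 1.68), Oasl2, an oligoadenylate synthetase-like gene (1.55), and Ifi35 (1.06) had the smallest p-values. In ASC_As300 against Control 6 were called (background 0.783%), with a median of 0.95, and 3 without ASC_As300 replicate 3. DESeq2 called 16 and 12 (backgrounds 2.64% and 2.05%). In ASC_As300 against ASC all 20 had negative log2 differences, between -0.67 and -0.07, with 0 called by edgeR or DESeq2. Of the 20, 2 had an unadjusted p under 0.05, as had 307 higher and 362 lower of all 20818 tested genes. Irf7 itself moved there from -0.43 to -0.19 without ASC replicate 2, its highest tumor. How far the shared sign of the targets rests on that tumor was not tested. Without Control replicate 1 edgeR called 8 of the 20 in ASC and 6 in ASC_As300 against Control. These lists were written with earlier results of the same tumors known, so their direction is no independent evidence.

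Of 9 DNA-binding partners of IRF4 and IRF8, Batf2 was called higher in ASC against Control (background 0.706%), and Batf2 and Spi1, which encodes PU.1, in ASC_As300 (0.783%). DESeq2 called Batf2, Spi1 and Batf3 in ASC (background 2.64%) and Batf2 and Spi1 in ASC_As300 (2.05%). Batf2 was at 1.88, 1.71 and 0.803 CPM in Control and at 13.1, 7.61 and 11.3 CPM in ASC (log2 2.86, edgeR adjusted p = 0.00189). Spi1 was 0.60 higher in ASC_As300 (edgeR adjusted p = 0.0495), a call kept without ASC replicate 1 or ASC replicate 3 and lost without any other single tumor (adjusted p up to 0.195). Of 8 co-repressors and feedback inhibitors, Socs1, the inhibitor of JAK signaling, and Trim21, a ubiquitin ligase that targets IRFs, were called in ASC (log2 1.46 and 1.09), and Socs1 alone in ASC_As300 (1.46). The Trim21 call was lost without any 1 Control tumor, ASC replicate 2 or ASC_As300 replicate 1 or 3 (adjusted p up to 0.145), and those of Socs1 held. DESeq2 called Socs1, Trim21 and Usp18 in ASC and Socs1 and Trim21 in ASC_As300. The IRF2-binding co-repressors Irf2bp1, Irf2bp2 and Irf2bpl had log2 differences of 0.06 to 0.31 in ASC.

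In As300 against Control edgeR called 0 of the 90 tested genes of these 7 lists, of which 28 had an unadjusted p under 0.05, as had 24.1% of all tested genes. DESeq2 called 4 of them, against a background of 5.07%: Socs1 was higher, and Ikzf3, Nlrc5 and Ifi44 were lower. In edgeR their log2 differences were 0.73 for Socs1, -2.20 for Ikzf3, -1.11 for Nlrc5 and -0.74 for Ifi44, with adjusted p between 0.0511 and 0.103. The co-repressor genes Irf2bp1 (log2 0.56, edgeR adjusted p = 0.045) and Irf2bpl (log2 0.33, edgeR adjusted p = 0.0448) were higher, but below the 1.5-fold minimum. Socs1 was called when ASC replicate 1 or 3 was left out, and Irf2bp1 when As300 replicate 1 was. The list medians were -0.19 for the IRF1 targets and -0.05 for the ISGF3 and IRF7 targets, and without Control replicate 1 they were 0.13 and 0.09.

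**Figure D4:**
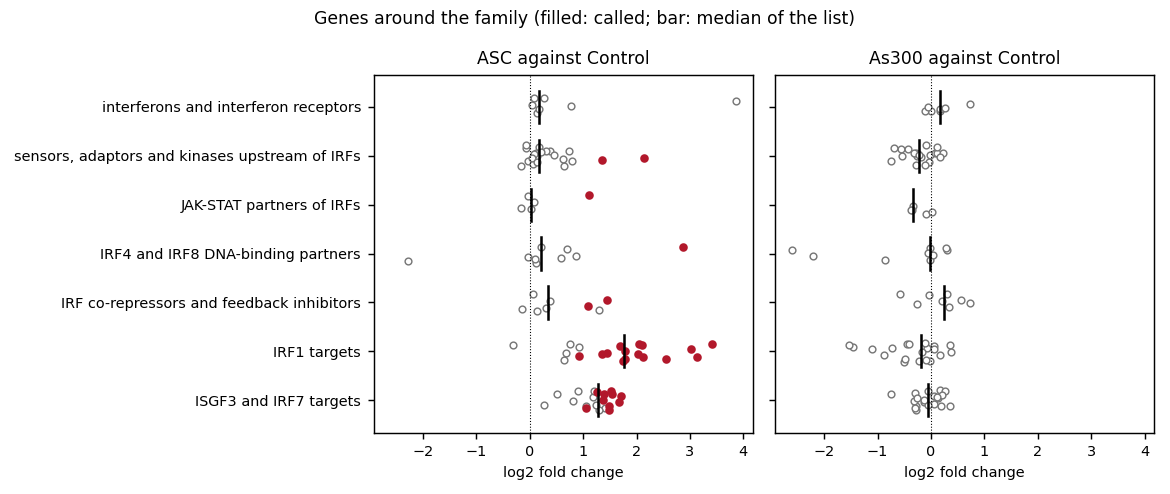
Log2 fold changes of the tested genes of 7 lists around the family in ASC and As300 against Control, 1 point per gene, filled where called, with the list median as a bar. In ASC 15 of 20 IRF1 targets and 10 of 20 ISGF3 and IRF7 targets are filled, and in As300 none of the 90 genes is.

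Some leukocyte markers also differed between tumors with and without ASC. The 9 macrophage markers summed to between 823 and 1126 CPM in Control and between 1157 and 1172 CPM in As300, against 1239 to 1727 CPM in ASC and 1300 to 1545 CPM in ASC_As300. C1qa, C1qb, C1qc and Fcgr1 were called higher in ASC and in ASC_As300 against Control. Of the 9 markers, 7 had positive log2 differences in each, the lowest being -0.35 in ASC and -0.46 in ASC_As300. In ASC_As300 against As300 Fcgr1 alone was called, and over both iAs levels Fcgr1 and C1qb were. The 5 pan-leukocyte markers summed to between 231 and 440 CPM in Control and between 281 and 305 CPM in As300, against 391 to 492 CPM in ASC and 392 to 482 CPM in ASC_As300, with 0 of 5 called in ASC or ASC_As300 against Control. Cd52 and Coro1a were called higher in both without Control replicate 1, and with all tumors Cd52 was called over both iAs levels. The 8 T cell markers summed to between 16.01 and 80.7 CPM in Control and between 13.4 and 18.6 CPM in As300, against 52.5 to 65.2 CPM in ASC and 42.7 to 69.0 CPM in ASC_As300. No T cell marker was called in these comparisons with all tumors, although Cd8a was over both iAs levels, and without Control replicate 1 6 of the 8 were called higher in ASC and 5 in ASC_As300. The 5 markers of conventional type 1 dendritic cells, which depend on Irf8, summed to between 13.2 and 43.8 CPM in Control and between 18.2 and 19.0 CPM in As300, against 28.8 to 38.4 CPM in ASC and 33 to 33.5 CPM in ASC_As300. Of these 5, Cadm1 alone was called higher in both against Control. Only 3 of the 5 had positive log2 differences in each, the lowest being -0.20 in ASC and -0.21 in ASC_As300. The highest Control sum, 43.8 CPM, was that of Control replicate 1. Without this tumor the list median moved from 0.76 to 1.64 in ASC and from 0.35 to 1.23 in ASC_As300, with Cadm1 still the only call. Within these lists no marker was at 0 in a whole group. The B cell, plasma cell, plasmacytoid dendritic cell and neutrophil lists gave 0 calls in ASC or ASC_As300 against Control. Their median log2 differences were -3.23, -1.13, -0.18 and -0.46 in ASC and -3.91, -1.49, -1.74 and -0.07 in ASC_As300. Without Control replicate 1 they were 0.48, 1.22, -0.08 and 0.77 in ASC, with Ighm called higher. In ASC_As300 they were then -0.04, 0.45, -1.03 and 0.43. Control replicate 1, at 68.1 CPM of Irf1, had 440 CPM of pan-leukocyte markers, within the range of the ASC tumors, and 1014 CPM of macrophage markers, below all of them. Outside the leukocytes, the 9 epithelial markers summed to between 67.1 and 363 CPM in Control and between 95.97 and 119.7 CPM in As300. They summed to 33.9 to 49.8 CPM in ASC and 26.8 to 42.3 CPM in ASC_As300. Of 8 tested, 3 had positive log2 differences in ASC against Control and 4 in ASC_As300 against Control. Krt8 alone was called, lower in ASC_As300 against Control and over both iAs levels, where 5 and 18 of 20818 genes were called lower. The part of leukocyte or epithelial content in the levels of the members, Irf1 included, was not tested.

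**Figure D5:**
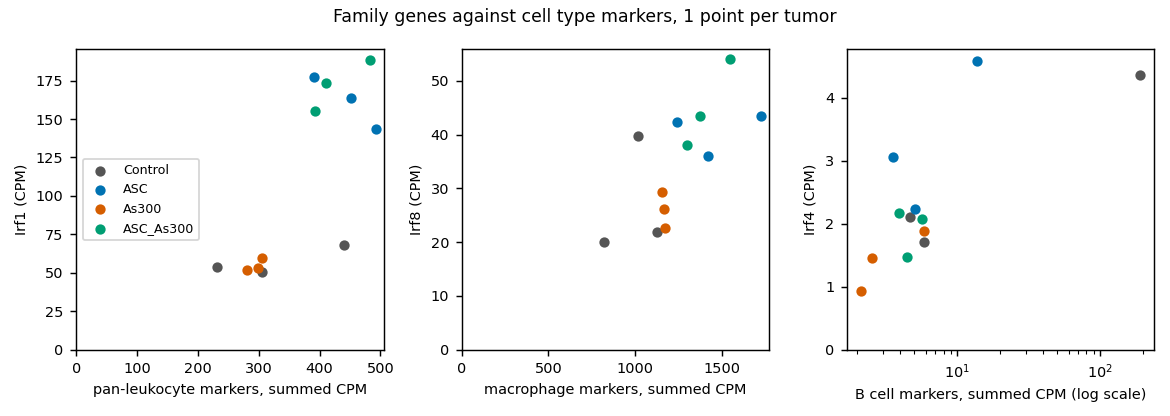
Irf1 against pan-leukocyte markers, Irf8 against macrophage markers and Irf4 against B cell markers (log axis for B cells), in CPM, with 1 point per tumor. Control replicate 1 is the gray point at 440 CPM of pan-leukocyte markers and 68.1 CPM of Irf1, and the gray point at 190.8 CPM of B cell markers and 4.36 CPM of Irf4.

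The genes whose log2 CPM followed a member most closely over the 12 tumors are given as a description, with Pearson's r over all tumors and then with group means removed, since the 4 groups alone create correlation. Irf1 was nearest to Igtp (0.995, 0.833), Gbp2 (0.994, 0.790) and Sectm1a (0.990, 0.635). Irf9 was nearest to Parp14 (0.984, 0.922), Ifi47 (0.970, 0.941) and Tgtp2 (0.969, 0.917), and Irf7 to Oas1a (0.988, 0.988), Oas1g (0.985, 0.959) and Phf11d (0.983, 0.944). Igtp, Ifi47 and Tgtp2 are interferon-inducible GTPases, and Oas1a and Oas1g are oligoadenylate synthetase genes. With group means removed, r was between 0.635 and 0.833 for the genes nearest to Irf1, and between 0.944 and 0.988 for those nearest to Irf7. Irf2 was nearest to Gm4841 (0.968, 0.881), Calhm6 (0.953, 0.659) and Serpina3f (0.948, 0.686), and Irf5 to Tifab (0.970, 0.879), H2-M3 (0.963, 0.848) and Parp12 (0.954, 0.824). Irf8 was nearest to Idnk (0.951, 0.877), Zap70 (0.950, 0.899), the T cell receptor kinase, and Gm2a (0.948, 0.924). For Irf3, which did not follow the groups, the nearest were Phkg2 (0.904, 0.946), Ucn2 (0.897, 0.905) and Oscar (0.875, 0.911). For Irf4 they were Gm14085 (0.922, 0.895), Cd1d1 (0.904, 0.898) and Mageh1 (0.902, 0.852). Oas1a and Oas1g are close copies whose reads counting can split.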

How the data were processed

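Poly(A) RNA of 12 tumors was sequenced as stranded, paired-end libraries. Trimming by Cutadapt, alignment by HISAT2 and quantification by StringTie and Ballgown are the steps the authors describe, and the submitters' processing notes give versions 1.1.0, 2.0 and 1.3.4 for the first 3 tools. The deposited values are whole-number counts per Ensembl gene without normalization, and the build, the annotation and the step that made the counts are not given in the sources used here. Symbols and gene positions came from GENCODE M21 (GRCm38), matched by Ensembl ID. All 8 members matched, and some items are not reported here.

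The tests were run in edgeR 4.0.16 and, as an alternative, in DESeq2 1.42.0, under R 4.3.3 (limma 3.58.1 loaded with edgeR). Low genes were removed by filterByExpr, and the others were scaled by TMM and fitted with 1 mean per group over all 12 tumors, and each comparison was tested by the quasi-likelihood F test. Calls needed an adjusted p under 0.05 over 20818 genes and a change of 1.5-fold (0.585 on the log2 scale). Log2 CPM carried a prior count of 2. Lengths are those of the longest principal transcript of each gene. The procedure was tested on simulated data. Named genes are all members, the 3 genes most correlated with each, and up to 3 genes per list with the smallest p in ASC, As300 and ASC_As300 against Control. Genes outside this rule (for example the receptors, Il15, Casp1, Nos2, Il12b, Ciita, the interferons at or near 0, some Irf2bp genes, called markers and genes named beside a small count) were chosen after their values were seen. The members, lists and tests were chosen with earlier results of these data known. Alternatives covered other filters (none, or at least 10 counts in every tumor), DESeq2's Wald test and its size factors, calls without a minimum fold change, fits restricted to the tumors compared, a block for the replicate number, division of counts by 4, GC correction and the omission of each tumor in turn.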

Additional observations from a re-analysis of the deposited data

How the results depend on the processing

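The calls of Irf1 in tumors with ASC held in all alternatives, and no called member changed direction in any of the 1320 values recomputed. Of these, 1262 kept their direction and side of the threshold or were uncalled in both, 47 lost a call and 11 gained one, and 77 uncalled values had the other sign. The number of members called moved beyond 1.5 times as follows. In a fit of only the tumors compared it was 1 in ASC against Control and 1 in ASC_As300 against Control. In ASC_As300 against Control it was 1 with the GC correction and 4 with DESeq2. In ASC_As300 against As300 it was 1 with no filter on low counts and 1 with the replicate number as a block. Leaving out 1 tumor at a time gave 2 to 3 members in ASC against Control, 1 to 3 in ASC_As300 against Control, 1 to 3 in ASC_As300 against As300 and 3 to 5 for the ASC effect over both iAs levels, and 0 in the comparisons for iAs and the interaction. The causes of these moves were not tested. With 3 tumors per group, leaving out 1 leaves 2, whose spread is shared with the other groups.

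The labels give each group replicate numbers, but same-numbered tumors did not deviate together: the correlations of their deviations from the group means lay between -0.124 and 0.172, and 2 of 18 pairs exceeded 0.1. With the replicate block the calls were 2 members in ASC against Control, 2 in ASC_As300 against Control, 1 in ASC_As300 against As300 and 4 for the ASC effect, and 0 elsewhere. Depth limits Irf4, at 53 to 211 counts, more than the other members.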
